A study of Mus musculus with 6 samples.

Results

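Astrocyte marker genes were followed in the hippocampus of mice given the antidepressant venlafaxine, an inhibitor of serotonin and noradrenaline reuptake. The 10 genes (Gfap, Aqp4, Gja1, Slc1a2, Slc1a3, Glul, Aldoc, Aldh1l1, S100b and Sox9) were taken by name from a list, and every array probe set annotated to exactly 1 of these symbols was used, 34 probe sets for 10 of the 18193 genes on the array. The animals were male DBA/2 mice, an inbred strain, housed singly; their age is not stated in the sources used here. They drank water that delivered 0 (control), 30 (low dose) or 100 (high dose) mg of venlafaxine per kg of body weight each day for 30 days, with 10 animals per dose. Material from the hippocampus was combined within each dose into 1 left and 1 right pool, and each pool was run on 1 array, 6 arrays in all. Replicate 1 was the right pool for the control and the low dose but the left pool for the high dose. Replicate 2 of the control and of the high dose was hybridized at a later date than the remaining 4 arrays, which include both low dose arrays. Nothing in the labels says whether the left and right pools of a dose hold different animals. The p-values below thus cover only the spread between arrays, which may be technical. In the dose comparisons this spread also includes the difference of side and, for the control and the high dose, that of date.

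Astrocytes are the glial cells that surround synapses and blood vessels. They clear glutamate and potassium released by neurons, supply metabolic fuel, and connect to each other and to capillaries through specialised membrane domains. In the hippocampus some of these genes, such as Gfap, Slc1a3 and Sox9, are also active in the radial stem cells of the dentate gyrus, and Glul and S100b are found in some oligodendrocytes. In whole tissue, a smaller number of astrocytes and less RNA per astrocyte cannot be told apart.

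All 10 genes passed the filter on dim genes, which asked for a value above the array's median on at least 2 arrays and left 11743 genes to test. The array medians lay between 7.79 and 7.80 on the log2 scale, and all 10 genes were above them on every array. The labelled tissue was checked by its markers. All 10 dentate granule cell markers on the list for this check passed the filter, and Calb1, a calcium-binding protein of granule and other hippocampal neurons, ranged from 12.42 to 12.64. Over the 6 arrays the RNA integrity number (RIN) was 8.5 to 9.1 among the first-date arrays, against 7.9 and 8.2 for the later ones, so date and RNA quality move together. For each gene the probe set with the highest mean stood for the gene, and levels are compared only within a gene, since probe sets differ in brightness for reasons other than abundance.

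Gfap encodes the intermediate filament of the astrocyte skeleton, which rises in reactive astrocytes. Its log2 level was 9.56 and 9.64 on the control arrays, 9.57 and 9.76 at the low dose, and 9.60 and 9.67 at the high dose. The groups overlapped, and the spread within the low dose pair (SD 0.132) was larger than any difference between group means. Aqp4, the water channel of the endfeet that astrocytes place on capillaries, read 11.94 and 11.70 in the controls, 11.94 and 12.08 at the low dose, and 11.94 and 11.71 at the high dose. The 2 low Aqp4 values were those of the later date. Gja1, which encodes the gap junction protein connexin 43, was at 13.49 and 13.44, 13.38 and 13.59, and 13.44 and 13.52 in the same order, a range of 0.208, and the doses overlapped.

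Next came the genes of glutamate uptake and conversion. Slc1a2, the main glutamate transporter of forebrain astrocytes, measured 13.92 and 14.07 in the controls, 13.79 and 13.98 at the low dose, and 13.79 and 14.16 at the high dose. Its 2 highest values were those of the later date. Slc1a3, the second astrocyte glutamate transporter, gave 11.72 and 11.33 in the controls, 11.60 and 11.55 at the low dose, and 11.64 and 11.24 at the high dose, so here the later date held the 2 lowest values. Glul, glutamine synthetase, which turns the captured glutamate into glutamine, lay at 13.34 and 13.28, 13.16 and 13.37, and 13.18 and 13.19 in that order of groups. Both high dose arrays were below both control arrays, while the low dose pair spanned the controls.

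Aldoc, the brain form of the glycolytic enzyme aldolase, had values of 13.96 and 13.98 in the controls, 13.94 and 14.16 at the low dose, and 13.91 on both high dose arrays. The high dose pair was the lowest, and the low dose pair reached from below to above the controls. Aldh1l1, an enzyme of folate metabolism widely used to mark astrocytes, stood at 9.88 and 9.44 in the controls, 9.75 and 9.90 at the low dose, and 9.71 and 9.72 at the high dose. Control replicate 2 was the lowest of the 6 and the control pair had an SD of 0.308, the largest within-group spread of the 10 genes. S100b, a calcium-binding protein, read 11.52 and 11.40, 11.51 and 11.62, and 11.55 and 11.41, with the later date again lowest. Sox9, a transcription factor of glial precursors that stays active in mature astrocytes, was at 8.71 and 8.57 in the controls, 8.72 and 8.79 at the low dose, and 8.75 on both high dose arrays. All 4 treated values of Sox9 lay above both control values, although the nearest were 8.72 and 8.71.

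**Figure D1:**
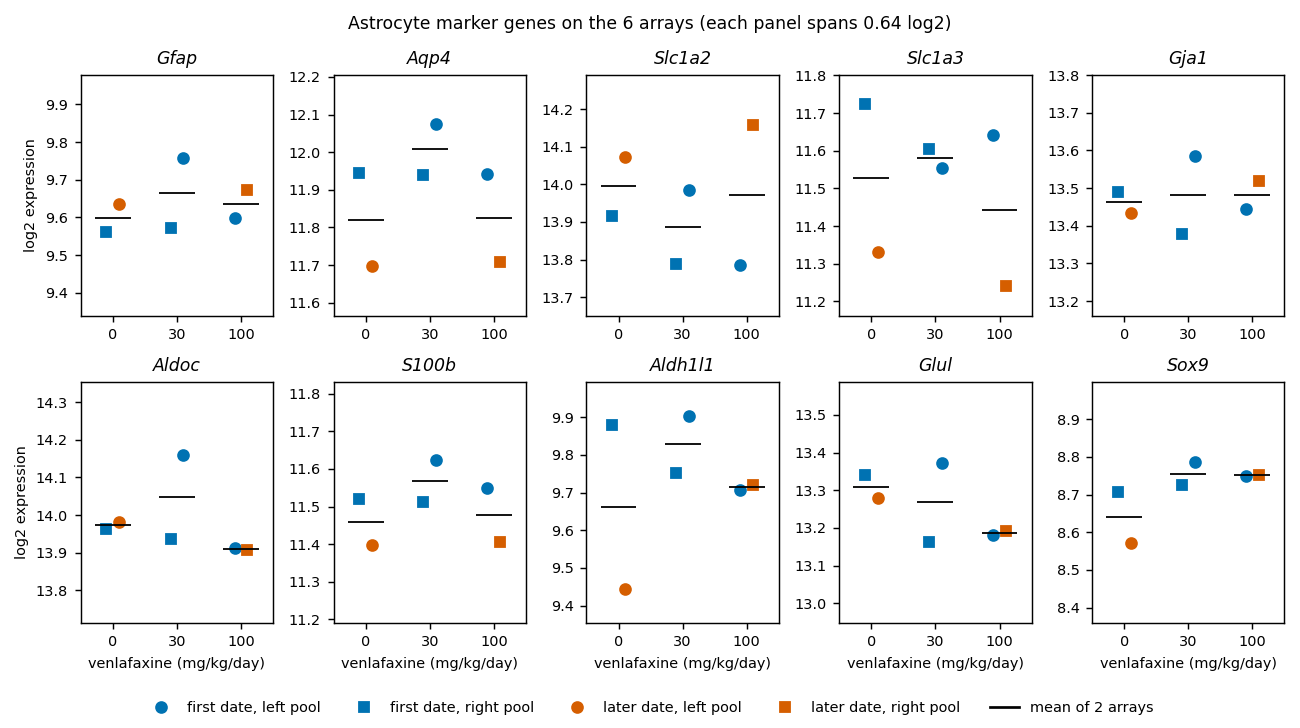
Log2 expression of each astrocyte gene on each array, with 1 panel per gene, the daily venlafaxine dose on the horizontal axis, blue for the first and orange for the later hybridization date, circles for left and squares for right pools, and black lines for the mean of the 2 arrays of a dose. For Aqp4, Slc1a2, Slc1a3 and S100b the orange points stand apart from all blue points, whereas the doses overlap.

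The first comparison asked whether the high dose altered these genes. None of the 10 passed the threshold, an adjusted p of 0.05 over all genes (limma with Benjamini-Hochberg adjustment, adjusted p = 1 for each of the 10), and 0.00852% of all genes tested did. At an unadjusted p under 0.05 the count was also 0 of 10, against 2.76% of all genes. The log2 differences from the control mean ran from -0.12 (Glul) to 0.11 (Sox9), with 6 genes above and 4 below 0 and a median of 0.012, beside a median of -0.030 over all genes. The median of the 10 was 0.064 without control replicate 1 and -0.047 without control replicate 2. The widest 95% interval, that of Slc1a3, reached from -0.35 to 0.18, and that of Gfap from -0.18 to 0.25. With 2 arrays per group, changes of these genes within their intervals are thus not excluded. For 1 gene, Sox9, both high dose arrays lay above both controls, where 8.03% of all genes did, and for 2 genes, Aldoc and Glul, below both, where 18.7% of all genes did.

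The high dose differences were also taken within each date. On the first date 3 of the 10 were higher and 7 lower, with a median of -0.048, where 22.4% of all genes were higher. On the later date 7 were higher and 3 lower, with a median of 0.024, where 58.9% of all genes were higher. On the first date the difference was 0.038 for Gfap, -0.082 for Slc1a3, -0.051 for Aldoc, 0.031 for S100b, -0.16 for Glul and 0.042 for Sox9. On the later date it was 0.037 for Gfap, -0.091 for Slc1a3, -0.074 for Aldoc, 0.0088 for S100b, -0.087 for Glul and 0.18 for Sox9. The sign was thus the same on both dates for these 6 genes and turned for the other 4. Aldh1l1 gave -0.17 among the first-date arrays and 0.28 among the later ones, Slc1a2 gave -0.13 and 0.085, Gja1 gave -0.044 and 0.085, and Aqp4 gave -0.0030 and 0.011. Each date holds 1 control and 1 high dose array, so these single differences carry no error of their own. With the date as a term, and on the first-date arrays alone, where the low dose pair gives the spread, 0 of the 10 passed.

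The second comparison set the low dose against the controls, which are the same control arrays as above. Again 0 of 10 genes passed (limma, adjusted p = 1 for each), with 0.0426% of all genes past the threshold, and 0 of 10 had an unadjusted p under 0.05, against 3.32% of all genes. The largest differences were 0.19 for Aqp4 (SE 0.11, 95% interval -0.046 to 0.42) and 0.17 for Aldh1l1 (SE 0.12, 95% interval -0.080 to 0.41). The other Aqp4 probe set that passed the filter was at -0.12. Gfap was at 0.065 (95% interval -0.15 to 0.28), S100b at 0.11, Sox9 at 0.12, Aldoc at 0.075, Slc1a3 at 0.052 and Gja1 at 0.020, while Slc1a2 (-0.11) and Glul (-0.041) had lower means. The sign of Gja1 turned after quantile normalization (-0.030). The median of the 10 was 0.070, and 0.013 without low dose replicate 2, beside 0.038 over all genes, of which 67.6% had a higher mean at the low dose.

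Both low dose values of Sox9 lay above both controls, 1 gene of 10 where 13.4% of all genes did so, and 0 of 10 lay below both, where 7.78% of all genes did. Aldh1l1 passed only in the fit without control replicate 1 (log2 difference 0.38, limma adjusted p = 0.0349), which compares the low dose with control replicate 2 alone and in which 4.66% of all genes passed. Against the first date's control, Aldh1l1 was at -0.051, Aqp4 at 0.062 and Gfap at 0.10, so the first 2 differences were smaller or turned there, and no low dose array was run on the later date.

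**Figure D2:**
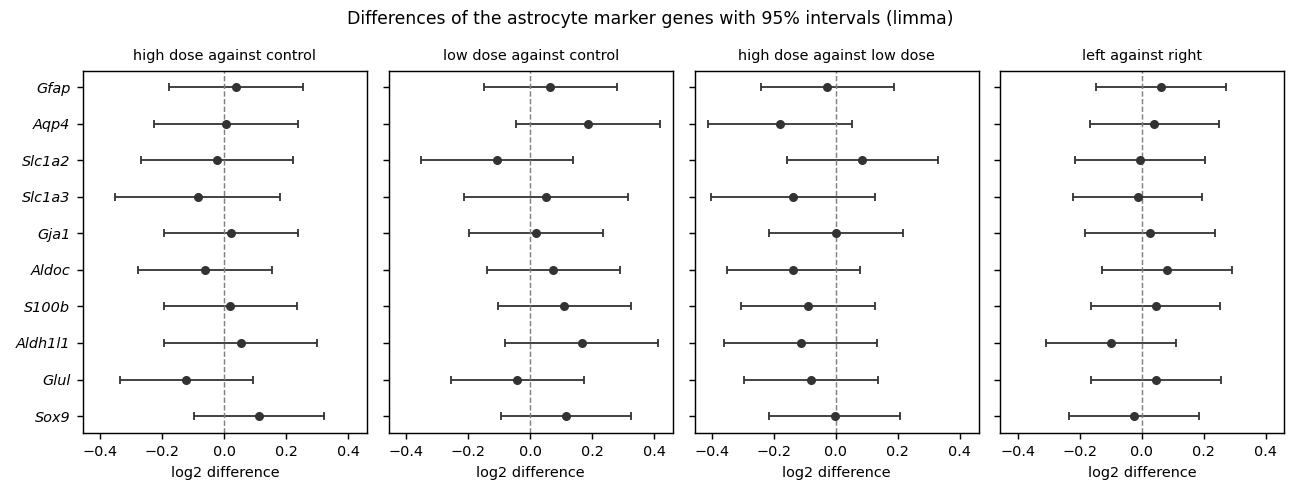
Log2 differences of the 10 astrocyte genes (points) with 95% intervals from limma (bars) for the dose comparisons and for left against right, with 1 panel per comparison and 0 marked by the dashed line. Every interval in these 4 panels includes 0, and the bounds reach from -0.41 to 0.42.

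The doses were also compared with each other. None of the 10 genes passed the threshold (limma, adjusted p from 0.846 to 0.999), and 0% of all genes tested did. At an unadjusted p under 0.05 the counts were 0 of 10 and 6.21% of all genes. High dose means were lower for 8 of the 10, with Aqp4 at -0.18, Slc1a3 at -0.14, Aldoc at -0.14 and Aldh1l1 at -0.11, and higher for Slc1a2 (0.085) and Gja1 (0.0003). The median was -0.086, beside -0.066 over all genes, and after quantile normalization the split was 5 against 5 with a median of 0.0008. Gfap, S100b and Sox9 turned sign under that normalization and Gja1 turned when arrays were centred. Both high dose arrays lay below both low dose arrays for Aldoc and Aldh1l1, 2 of 10 where 37.3% of all genes did, and above both for 0 of 10 where 3.98% did. Low dose replicate 2 carried much of this: it was the highest of the 6 arrays for 8 of the 10 genes, as it was for 45.3% of all genes, and without it the median was -0.0007.

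Left and right pools were compared with the dose as a term. No gene of the 10 passed (limma, adjusted p = 1 for each), 0% of all genes did, and at an unadjusted p under 0.05 the counts were 0 of 10 and 0.341% of all genes. The differences of left from right ran from -0.099 (Aldh1l1) to 0.082 (Aldoc), all with intervals that include 0. Left and right values overlapped for all 10 genes, while 1.23% of all genes were higher and 0.826% lower on every left array. Left and right control and high dose pools also differ in date, and only the low dose pair shared 1 date. In that pair 9 of the 10 genes were higher on the left, with a median of 0.17, as were 83.8% of all genes. Slc1a3 was the exception at -0.050.

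The only call among the 10 genes came with the hybridization date. Slc1a3 fell on the later date, from 11.63 ± 0.071 (SD, n = 4 arrays) to 11.29 ± 0.064 (SD, n = 2 arrays). With the dose as a term the difference was -0.40 (SE 0.092, 95% interval -0.58 to -0.22), or 1.32-fold lower (limma, adjusted p = 0.00102). It was -0.39 between the control arrays and -0.40 between the high dose arrays, so both pairs gave the same size. Slc1a3 was the 1 gene of 10 past the threshold, where 6.97% of all genes passed, and 4 of the 10 had an unadjusted p under 0.05, where 19.5% of all genes did. The date fit used 1 SE for all genes, so a gene's p-value follows from the size of its difference alone.

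The other 3 of those 4 genes did not pass. Slc1a2 had a difference of 0.26 (limma, adjusted p = 0.0557), opposite in direction to Slc1a3, with 0.16 between the controls and 0.37 between the high dose arrays. It lay near the threshold, and the same probe set passed when each was tested singly (limma, adjusted p = 0.0441 over probe sets). Aqp4 had -0.24 (limma, adjusted p = 0.0929), with -0.25 and -0.23 in the pairs. Aldh1l1 had -0.21 (limma, adjusted p = 0.159), which came from the control pair alone (-0.44, against 0.013 at the high dose). Slc1a2 was the 1 gene of 10 whose later arrays lay above all first-date arrays, where 5.19% of all genes did, and Slc1a3, Aqp4 and S100b were the 3 that lay below, where 30.1% of all genes did.

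Gfap (0.075), Gja1 (0.011), Aldoc (0.0075), Glul (-0.025), Sox9 (-0.066) and S100b (-0.13) made up the remainder, with Gja1 and Aldoc below 0 after centring or quantile normalization. The Slc1a3 call ended with RIN as a further term (-0.37, limma adjusted p = 1), with the mean of its probe sets (-0.13, limma adjusted p = 0.347), and without control replicate 1 or control replicate 2 (-0.40 and limma adjusted p = 0.101 in both). The part of RNA quality in this difference was not tested beyond that fit.

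Probe sets of the same gene did not always move in 1 direction between the dates. Of the 34 probe sets, 28 passed the filter, and 9 of the 10 genes had more than 1 of these. Tested singly, 6 of the 28 passed (limma adjusted over probe sets), 2 higher and 4 lower, where 10.8% of all probe sets passed. They belonged to 5 of the 10 genes, where 15.7% of all genes had a probe set that passed. These shares are not on equal terms. The 10 genes had 28 tested probe sets, against 19939 for 11745 genes in all, and so more chances of a call per gene. Among the genes with several, 8 had probe sets on both sides of 0, some of them close to 0. Both Glul probe sets were lower (-0.025 and -0.20). The share of all genes for which this held was not counted. For Gja1 and Aldoc only the main probe set was above 0, at 0.011 and 0.0075.

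Aqp4 showed the widest contrast. Its brightest probe set, 1434449_at, gave -0.24, while 1425382_a_at, a design that reads several transcript forms of the gene, rose by 0.49 (limma, adjusted p = 8.19e-06), from 8.90 and 9.07 on the first-date control and high dose arrays to 9.21 and 9.74 on the later ones. For Gfap the main probe set 1440142_s_at gave 0.075 and 1426509_s_at fell by 0.38 (limma, adjusted p = 0.00127). For Slc1a3, 1443749_x_at fell by 0.45 (limma, adjusted p = 7.32e-05) together with the main probe set 1426340_at, whereas 1452031_at was at 0.032. For Gja1, 1415801_at fell by 0.33 (limma, adjusted p = 0.0067), the main probe set 1437992_x_at was at 0.011, and 1415800_at was at -0.25 (limma, adjusted p = 0.0602). For Slc1a2 the main probe set 1438194_at rose by 0.26 (limma, adjusted p = 0.0441), while 1451627_a_at was at -0.11. The suffixes _s_at and _x_at mark probe sets whose probes can also match other transcripts, so the main values of Gfap and Gja1 are less certain than the others.

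**Figure D3:**
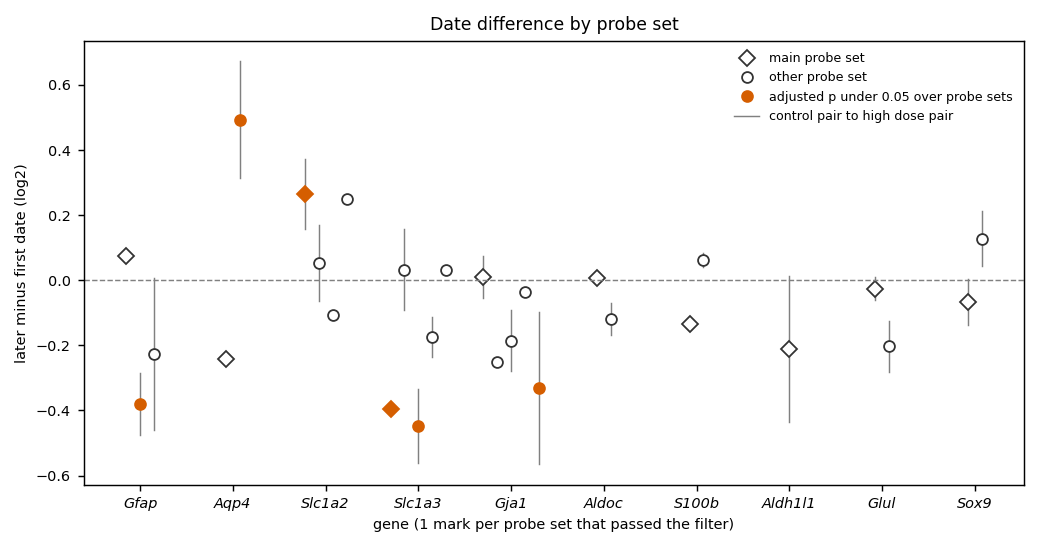
Difference of the later from the first hybridization date (log2, with the dose as a term) for each of the 28 probe sets of the 10 genes that passed the filter, with diamonds for the main probe set of a gene, filled marks for an adjusted p under 0.05 over all probe sets, and grey lines joining the difference between the control arrays to that between the high dose arrays. The Aqp4 marks lie at -0.24 and 0.49, and the Slc1a3 marks range from -0.45 to 0.032.

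In the dose comparisons the probe sets also disagreed, and none of the 28 passed. At the high dose 1425382_a_at of Aqp4 was at 0.35 while the main probe set was at 0.0040, and those of Sox9 were at 0.11 and -0.094. For high against low dose 1425382_a_at was at 0.47, where the main probe set of Aqp4 was at -0.18. At the low dose 1425382_a_at was at -0.12, against 0.19 for the main probe set of Aqp4. For Glul 1426235_a_at was at 0.26 at the low dose and the main probe set at -0.041. The other Sox9 probe set was at -0.093 at the low dose, so the position of Sox9 above the controls held for 1 of the 2 Sox9 probe sets that passed the filter. The same held for the low positions of Aldoc and Glul at the high dose. For Aldoc, 1424714_at was at 0.061 against the controls and 0.027 against the low dose. For Glul, 1426235_a_at was at -0.076 against the controls, with overlapping arrays.

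Wider sets of astrocyte genes were examined beside the 10. Of 55 further astrocyte genes, which share none with the 10, 51 were tested and 0 passed in any dose comparison. At the high dose 17 had higher and 34 lower means (median -0.036), where 35.9% of all genes were higher, and after quantile normalization 30 and 21, where 53.9% of all genes were. The largest differences were those of Dio2, the enzyme that activates thyroid hormone (-0.30, unadjusted p = 0.00769), S1pr1, a receptor for sphingosine 1-phosphate (-0.25), Ppp1r3c, a regulator of glycogen (-0.21), and Gpr37l1, an orphan receptor of glia (-0.19), each with a limma adjusted p of 1. Both high dose arrays of Dio2 (9.84 and 9.97) were below the controls (10.23 and 10.17), as they were for 18.7% of all genes. At the low dose 43 had higher and 8 lower means (median 0.074, beside 0.038 for all genes), and after quantile normalization 34 and 17. Fxyd1, a partner of the sodium pump, was at 0.41 (SE 0.12, limma adjusted p = 1), from 10.48 and 9.98 in the controls to 10.56 and 10.71 at the low dose. The lower Fxyd1 control was control replicate 2, a later-date array, and Fxyd1 was at -0.26 on that date (limma, adjusted p = 0.058). Slc14a1, a urea transporter, was at 0.28, Slc6a11, a GABA transporter, at 0.22, and Atp1b2, a sodium pump subunit, at 0.21. For Slc14a1 too, control replicate 2 was the lower control (8.66 against 9.07), and the date difference was -0.21. On the later date 11 of the 51 were higher and 40 lower (median -0.091), where 31.1% of all genes were higher. After quantile normalization the split by date was 18 and 33. Past the threshold were 3 of the 51, all lower, where 6.97% of all genes passed. They were Mt3 (-0.29), Gjb6 (-0.28) and Atp1b2 (-0.28), a metallothionein, the gap junction protein connexin 30 and the pump subunit. These genes are named after their values were seen.

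Genes that mark reactive astrocytes gave no call for either dose. Of 36 listed, 24 were tested, and 10 lay below the array median on all 6 arrays, among them Lcn2, Timp1 and Cxcl10. At the high dose 19 of the 24 had higher means, with a median of 0.039, where 35.9% of all genes were higher. Markers of other cells were higher there too, namely 10 of 10 meningeal and fibroblast (median 0.21), 13 of 13 choroid plexus (0.16), 8 of 8 ependymal (0.12) and 9 of 11 endothelial and mural markers (0.043), and their part in the reactive list was not tested. Among the reactive genes Cd109 was at 0.19, Amigo2 at 0.14, Serping1 at 0.14 and Cd44 at -0.14, each with a limma adjusted p of 1. At the low dose 21 had higher means, with a median of 0.079. Hspb1, a small heat shock protein, was at 0.40, Serpina3n, a protease inhibitor, at 0.36, Vim, the filament protein vimentin, at 0.26 and H2-D1, an antigen-presenting molecule, at 0.25, each with a limma adjusted p of 1. The Hspb1 difference came largely from low dose replicate 2, at 10.06 against 9.64 on replicate 1 and 9.60 and 9.30 in the controls. On the later date 6 of the 24 were higher and 18 lower (median -0.083), where 31.1% of all genes were higher. After quantile normalization the split by date was 8 and 16. Past the threshold were 3 of the 24, all lower, namely Vim (-0.39), Serpina3n (-0.37) and Cd44 (-0.34). Of all genes 6.97% passed, and 673 of those 818 calls were lower. Control replicate 2 held the lowest value of Vim (10.27) and of Serpina3n (9.27).

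Functional partners of the 10 genes were examined in the same way, with 5 of the endfoot genes and 1 gene in each of the glutamate and lactate lists also among the wider astrocyte genes, and 0 genes of the following lists passed in any dose comparison. Of 23 regulators of glial fate, all tested, 6 were higher and 17 lower at the high dose (median -0.033), with Sox8 at -0.20 and Smad1 at -0.19, where 35.9% of all genes were higher. After quantile normalization the split was 12 and 11 (median 0.0068). At the low dose 15 were higher and 8 lower (median 0.053), with Olig2 at 0.30 and Id2 at 0.18. On the later date 8 were higher and 15 lower (median -0.047), where 31.1% of all genes were higher. After quantile normalization the split by date was 12 and 11. Past the threshold were 2 of the 23, both lower, beside the 6.97% of all genes that passed. These were Sox2, a partner of Sox9 in neural precursors (-0.40), and Id2 (-0.38). Of 10 tested genes of the endfoot complex that holds Aqp4 in place, 4 were higher and 6 lower at the high dose (median -0.034), with Dag1 at -0.100 and Dtna at -0.090, and 7 higher and 3 lower at the low dose (median 0.036), with Mlc1 at 0.091 and Lama2 at 0.087. Quantile normalization turned the high dose split to 8 higher and 2 lower (median 0.012) and the low dose split to 5 and 5 (median -0.0061).

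Among 13 tested genes of glutamate and GABA handling, the high dose gave 6 higher and 7 lower (median -0.014), with the glutamine transporter gene Slc38a2 at -0.24 and Gpt2 at -0.13. The low dose gave 12 higher and 1 lower (median 0.11), with Got1 and Abat, both transaminases, at 0.24 and 0.23. After quantile normalization both doses gave 9 higher and 4 lower, with medians of 0.012 at the high dose and 0.053 at the low dose. Of 12 tested genes of aldolase and the lactate shuttle, 3 were higher and 9 lower at the high dose (median -0.044), with Ppp1r3c at -0.21 and Pfkfb3 at -0.19, and 10 higher and 2 lower at the low dose (median 0.077). Bsg, which brings lactate transporters to the membrane, was at 0.68 at the low dose (SE 0.16, limma adjusted p = 0.581), and Pygm, a glycogen phosphorylase, at 0.27. Bsg measured 11.59 and 10.79 in the controls and 11.84 and 11.89 at the low dose, and fell by 0.61 on the later date (limma, adjusted p = 2.79e-08). It was the 1 date call of the 12, where 6.97% of all genes passed. Control replicate 2, the low control value, was a later-date array.

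Other cell types shifted on the same arrays. Expressed as the mean deviation from each gene's own mean over the 6 arrays, the 10 astrocyte genes stood at 0.040 and -0.080 in the controls, -0.028 and 0.12 at the low dose, and -0.013 and -0.036 at the high dose. The median of all tested genes was at 0.054 and -0.056, -0.011 and 0.085, and -0.030 and -0.033 in that order. Markers of neurons followed the same course, at 0.037 and -0.098, 0.011 and 0.16, and -0.047 and -0.065. Low dose replicate 2 was thus the highest and control replicate 2 the lowest array for the astrocyte genes, the neuron markers and all genes alike. The mean log2 level of the 16 neuron markers, all of which were tested, moved with that of the astrocyte genes, and the part of such array-wide shifts in the astrocyte values was not tested beyond the normalizations given here.

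Markers of several other cells spread more widely. Oligodendrocyte markers, 12 tested of 15, were at 0.0059 and -0.18 in the controls, 0.15 and 0.23 at the low dose, and 0.022 and -0.22 at the high dose. Choroid plexus markers, 13 of 15, reached 0.24 on high dose replicate 2 and -0.26 on control replicate 2. Microglia markers, 12 of 14, stayed between -0.076 and 0.078. Endothelial and mural markers, 11 of 13, ran from -0.090 to 0.12, ependymal markers, 8 of 10, from -0.14 to 0.10, and meningeal and fibroblast markers, 10 of 11, from -0.22 to 0.16. Oligodendrocyte precursor markers, 7 of 8, lay between -0.13 and 0.14, and dentate granule cell markers, 10 of 10, between -0.18 and 0.11. Of 12 stem and progenitor markers 6 were tested, with a range of -0.073 to 0.11, and 5, namely Eomes, Mki67, Top2a, Tfap2c and Vnn1, lay below the array median throughout. The 10 astrocyte genes spanned -0.080 to 0.12, near the ranges of the endothelial and mural and of the stem and progenitor markers. That of the choroid plexus was wider. These ranges were not tested against each other.

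**Figure D4:**
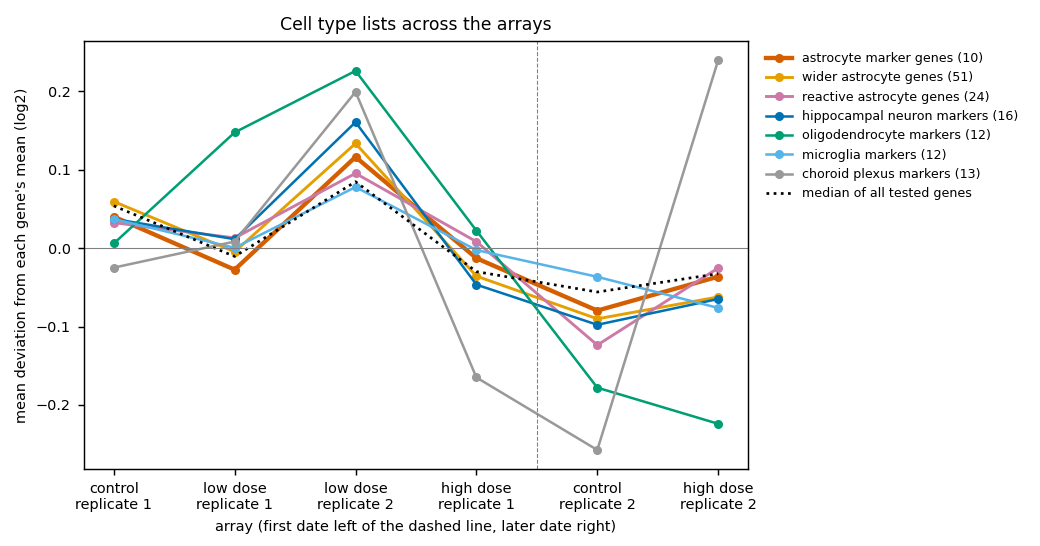
Mean deviation of each list's tested genes from their own means over the 6 arrays (log2, vertical axis) on each array (horizontal axis, with the later date right of the dashed line), with 1 coloured line per list, the number of genes in brackets, and the median of all tested genes dotted. The astrocyte genes follow the dotted line, with 0.12 on low dose replicate 2 and -0.080 on control replicate 2, while the choroid plexus line runs from -0.26 to 0.24.

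The 10 genes did not form a single pattern. Over the 6 arrays, which share the date and normalization effects described above, the Pearson correlation of a gene with the mean of the other 9 was 0.82 for S100b, 0.78 for Aldh1l1, 0.76 for Aqp4, 0.70 for Aldoc, 0.66 for Gja1, 0.61 for Glul, 0.60 for Sox9, 0.38 for Gfap, 0.27 for Slc1a3 and -0.36 for Slc1a2. Aqp4 and S100b were the closest pair at 0.985, and Slc1a2 and Slc1a3, the glutamate transporters, the most opposed at -0.846. These correlations describe 6 arrays and carry no test. Of 3650 other genes with a range of at least 0.3, those most like the mean of the 10 were Piga, Itfg1, Mrps25, Ccdc91 and Hsdl2, with correlations of 0.991 to 0.993 over the 6 arrays.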

How the data were processed

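Each pool's RNA (100 ng) was amplified, biotin-labelled and hybridized to 1 Affymetrix mouse array, per the labels' protocols. The authors deposited log2 expression values for 45101 probe sets, made with RMA in R 3.0.1 per the submitters' processing notes. RMA corrects background, normalizes arrays and summarises probes. The sources used here give neither its settings nor a genome build. The values run from 6.10 to 15.31, as log2 values would. Values were used as deposited. With few arrays, their number limits the precision.

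Probe sets were named from the platform annotation, with symbols updated by Entrez identifier (34741 of 34945 with 1 symbol; 932 had several, 9160 none, 64 were controls). Comparisons used limma 3.58.1 in R 4.3.3 (lmFit, eBayes, two-sided, Benjamini-Hochberg over 11743 genes, threshold 0.05), and each fit took the 6 arrays together with a term for each dose. Side and date were each added to that fit for their own comparison. Both of these fits estimated 1 spread shared by all genes. The fits were tested on simulated data with independent noise and no date effect. Recovery was required only for planted differences larger than any seen in the 10 genes, so the power at their size was not established. The members and lists were chosen with earlier results of these data known. Named beyond the 10 members are the list genes with the largest absolute difference at each dose (4 for the wider and reactive astrocyte lists, 2 for other astrocyte lists), any that passed in a dose comparison, and 5 genes by correlation. Genes named for date were chosen after their values were seen. Alternatives changed the terms, filter, probe set, normalization, prior or arrays. Same-numbered control and high dose arrays share a date; replicate 2 minus replicate 1 correlated over genes at 0.540 for those groups. The correlation was 0.0765 for the low dose with control and 0.133 for both doses.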

Additional observations from a re-analysis of the deposited data

Results flagged for a closer look

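For several genes the left pools and the right pools gave opposite dose differences of at least 0.1 log2. Each side has 1 array per dose, so the difference between sides was not tested. At the high dose, high minus control on the left and on the right was 0.245 and -0.237 for Aqp4, -0.287 and 0.241 for Slc1a2, 0.310 and -0.483 for Slc1a3, 0.153 and -0.114 for S100b, and 0.264 and -0.159 for Aldh1l1. The left pair sets a first-date high dose array against a later-date control, and the right pair the reverse, so side and date cannot be told apart in these pairs. At the low dose, low minus control on the left and on the right was 0.223 and -0.120 for Slc1a3, 0.151 and -0.111 for Gja1, and 0.461 and -0.127 for Aldh1l1. The left pair crosses the dates here too, while the right pair shares the first date.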

How the results depend on the processing

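In high dose against control, high against low dose and left against right, the count of astrocyte genes past the threshold stayed at 0 in every alternative run, including the replicate block (0). In low dose against control it stayed at 0 except without control replicate 1 (range 0 to 1 over fits without 1 array). For the date it was 2 without the filter, 0 when a gene's probe sets were averaged, 5 with each probe set tested singly, 0 with RIN as a term, and 0 to 2 without 1 array, 0 without either control array and 2, with Aldh1l1 added, without either high dose array. The median of the 10 genes ran from 0.0134 to 0.153 at the low dose without 1 array. For high against low dose it was 0.0008 after quantile normalization, -0.0042 with RIN as a term and -0.134 to -0.0007 without 1 array. Of 830 single values under the alternatives, none that was past the threshold in either fit changed sign. In the fits as reported, however, only Slc1a3 for the date was past it. Among values past it in neither fit, the sign changed for 17 of 180 at the high dose and 20 of 180 at the low dose. It changed for 34 of 180 between doses, 27 of 150 for side and 24 of 140 for date.

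Counts over all genes moved more. At the high dose (1 as reported) they were 2 with the stricter filter, 0 without the filter, with the mean of probe sets and after quantile normalization, 3 with side, 44 with date, 10 with both, 39 with RIN, 14 on the first date alone, 14 with the trend prior, 10 with the replicate block and 0 to 178 without 1 array. At the low dose (5) they were 0 without the filter, with the mean of probe sets, with probe sets singly and after quantile normalization, 17 with side, 21 with date, 9 with both, 20 with RIN, 18 on the first date, 17 with the trend prior, 32 with the block and 0 to 546 without 1 array. Between doses (0) they were 11, 3, 1, 4, 9, 25 and 45 in the order of those last 7 settings, and 0 to 152 without 1 array. For side (0) RIN gave 17, and fits without 1 array 0 to 3. For date (818) they were 517 with the mean of probe sets, 1839 with probe sets singly, 1505 after quantile normalization, 352 with side, 22 with RIN and 154 to 764 without 1 array. The cause of these changes was not tested.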
